A study of Mus musculus with 5 samples.

Results

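The Hippo core genes named here are Yap1, Wwtr1 (which encodes TAZ), Tead1, Tead2, Tead3, Tead4, Lats1, Lats2, Stk3 and Stk4. They were chosen by name, as all probe sets that the platform annotation gives to exactly 1 of these symbols. This found 22 probe sets of 9 genes among the 45037 probe sets tested, and no probe set was named for Stk3. RNA had been measured in dorsal pancreatic buds of C57BL/6J mouse embryos at E10.5, on Affymetrix arrays. The heterozygote group (n = 2 arrays) carried 1 mutant copy of Ptf1a, the gene of a basic helix-loop-helix factor that pancreas formation needs, and the null group (n = 3 arrays) carried only mutant copies. No wild-type buds were analysed here, and which part of Ptf1a is lost is not stated in the labels. Each array was given RNA pooled from 3 buds that had been freed of mesenchyme by hand and amplified in 2 rounds from the poly(A) tail. The pools are not said to come from separate litters, so a p-value here may leave out the spread between litters. How much of the spread between arrays is technical is not known.

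In the Hippo pathway the kinases STK3 and STK4 activate LATS1 and LATS2, which phosphorylate the coactivators YAP and TAZ and hold them in the cytoplasm. Unphosphorylated YAP and TAZ enter the nucleus and bind the TEAD factors, which carry the DNA-binding domain that both coactivators lack. In the embryonic pancreas YAP and TEAD are known to act at enhancers of progenitor genes, and YAP is lost from cells that become endocrine. Most of this control acts on protein phosphorylation and location, which an array of RNA does not measure.

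TEAD factors recognise the letters GGAATG, or CATTCC on the opposite strand, and some pathway genes are themselves TEAD targets. RefSeq promoter windows (build GRCm38.p6, 250 bases before to 50 after a start site) were matched for 7 of the 10 core genes, and both spellings were searched in each. At least 1 match was found for 4 of those 7 (Yap1, Wwtr1, Tead3 and Lats2), against 16.6% of 27025 genes with a window, a gene with several windows counting once. Of these 4 core genes Yap1 had 1 window, Wwtr1 and Lats2 had 2 each and Tead3 had 3. In the other lists described below, a match was found for 9 of 30 upstream regulators with a window and 6 of 21 cofactors and inhibitors. Of the YAP and TAZ targets 20 had a window and 8 of these had a match, among them Ccn1, Ankrd1, Axl and Amotl2. Ccn2 had no window. The first match of each of the 4 core genes is shown, with those of Ccn1 and Amotl2, so that the letters and their surroundings can be seen. Tead3 has 4 matches, and those of Axl and Ankrd1 are not shown because both genes were dim. Each is read 5′ to 3′ on the gene's strand with the motif in capitals. They lie at chr9:8004722-8004747 for Yap1, chr3:57576031-57576056 for Wwtr1, chr14:57746104-57746129 for Lats2, chr17:28350972-28350997 for Tead3 and chr3:145650073-145650098 for Ccn1, all on the minus strand, and at chr9:102717729-102717754 on the plus strand for Amotl2.
Yap1: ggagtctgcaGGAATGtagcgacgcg
Wwtr1: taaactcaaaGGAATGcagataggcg
Lats2: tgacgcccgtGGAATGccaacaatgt
Tead3: cgacgagcgaGGAATGgggtgcgcgg
Ccn1: cgccaaccaaCATTCCtgagatgttt
Amotl2: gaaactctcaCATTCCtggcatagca
These are matches of letters only. Whether TEAD factors bind there was not measured.

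Signals are given as normalised log2 values, and each array's background level came from 27 bacterial control probe sets. That level lay between 3.03 and 3.29, and 60.9% to 65.2% of probe sets exceeded it per array. All 12 measured markers of bud epithelium (among them Pdx1, Sox9 and Cdh1) were above it on every array. Of 20 mesenchyme markers 11 were above it on every array, with Pdgfra among them. Ptf1a itself had a log2 signal of 7.10 and 7.33 in heterozygotes and of 5.21, 6.07 and 5.00 in nulls, lower on each null array but without passing adjustment (limma adjusted p = 0.651). Summed linear signal of the mesenchyme list was 1907 to 2667 in heterozygotes and 2555 to 3075 in nulls. Of its 20 markers 17 were higher in nulls and 3 lower, where 49.1% of all genes were higher. In 7 of the 20 all nulls lay above both heterozygotes, where 9.82% of all genes did, and in 0 all nulls lay below. Summed linear signal of 10 erythroid markers was 9578 to 12021 in heterozygotes and 7973 to 8875 in nulls. Of these 10 markers 9 were lower in nulls and 1 higher, with a median log2 change of -1.05. In 6 of them all nulls lay below both heterozygotes, where 10.1% of all genes did. Log2 signal at the 3′ end of the Gapdh control exceeded that at its 5′ end by 1.69 and 1.52 in heterozygotes and by 1.42, 1.41 and 1.46 in nulls. For the actin control the groups overlapped, at 0.71 and 0.62 against 0.65, 0.71 and 0.57. The part of the marker lists and of these end differences in the Hippo values was not tested.

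No Hippo core probe set differed between the genotypes by the test. The main fit (limma, untrended) called 0 of the 22 at an adjusted p under 0.05, as it called 0% of all probe sets. The alternative fit with a prior variance that follows signal (trended) also called 0 of the 22, against 0.0178% (8 probe sets) of all. Adjusted p over the members ran from 0.893 to 0.9997 in the untrended fit and from 0.976 to 0.999 in the trended fit. An unadjusted p under 0.05 was found in the untrended fit for 1 of the 22, a probe set of Lats2, against 5.52% of all probe sets. In the trended fit it was found for 0 of the 22, against 2219 of all 45037. Log2 changes were positive at 11 probe sets and negative at 11. At the brightest probe set of each gene 4 of 9 genes were higher in nulls and 5 lower, with a median log2 change of -0.018, beside 49.1% higher and a median of -0.012 over all 18193 genes. The groups did not overlap at 5 of the 22 probe sets. Nulls were above at 3 of them and below at 2, where 9.9% and 10.1% of all probe sets did the same, so the members' shares are near the background.

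**Figure D1:**
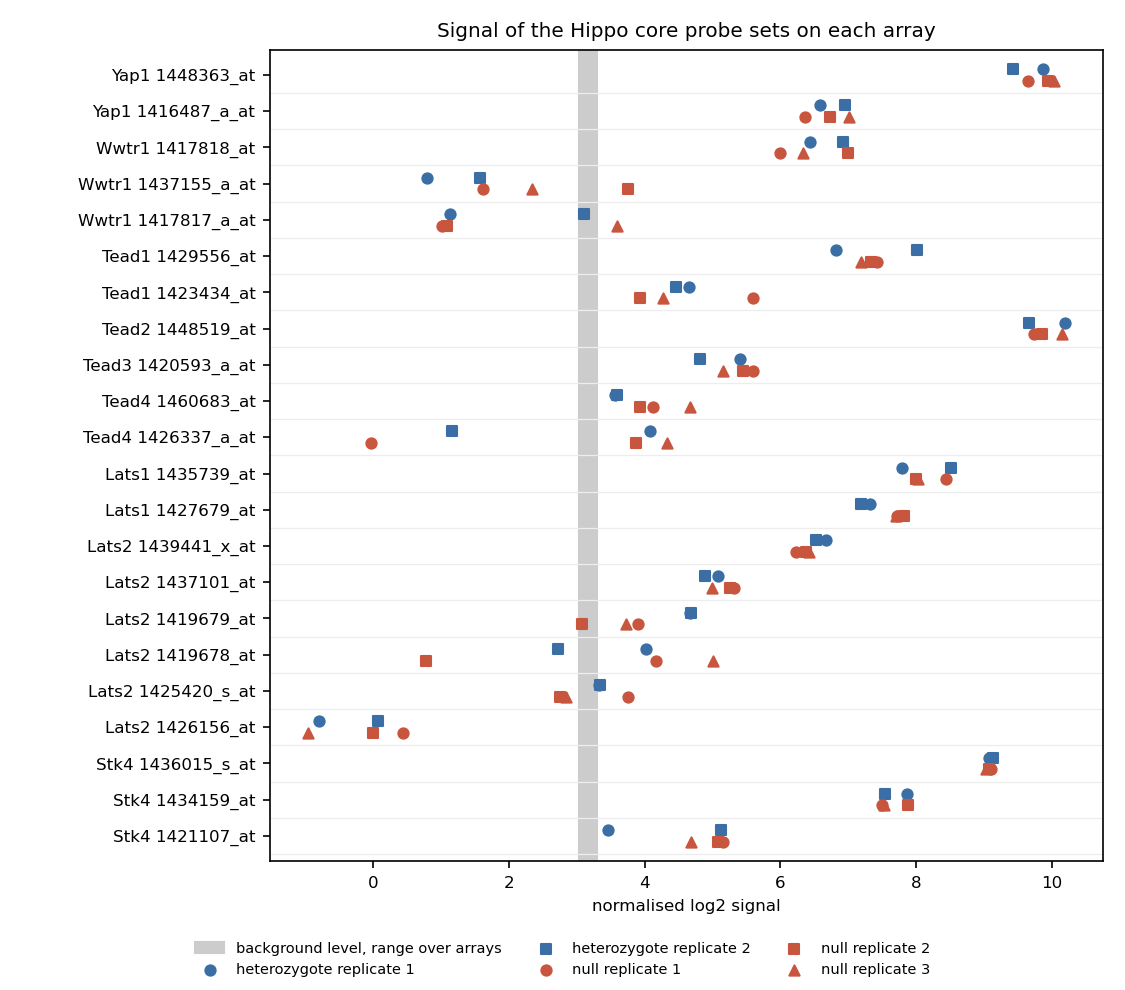
Normalised log2 signal (x axis) of the 22 Hippo core probe sets (y axis), 1 point for each of the 5 arrays, with heterozygotes in blue and nulls in red and the range of the background level as a grey band. The 2 genotypes lie among each other at most probe sets, and 15 of the 22 are above background on all 5 arrays.

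The precision behind these values is limited by the number of arrays. At the brightest probe sets the 95% interval of a change, without adjustment for the number tested, reached 0.85 to 1.25 to either side on the log2 scale. Changes below about 1.80- to 2.37-fold thus could not be told from none even before adjustment. Passing the adjusted test took more than that, since the 3.46-fold lower signal of Ptf1a in nulls did not pass (limma adjusted p = 0.651). The interval lay inside a 2-fold change in both directions for 1 of the 22 probe sets in the untrended fit and for 8 in the trended fit, against 3.87% and 17.6% of all probe sets. Changes beyond 2-fold therefore stay possible for the other 21 in the untrended fit, and a p that misses the threshold does not show that a member was level. In bulk RNA, fewer cells of a type and less RNA per cell cannot be told apart.

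**Figure D2:**
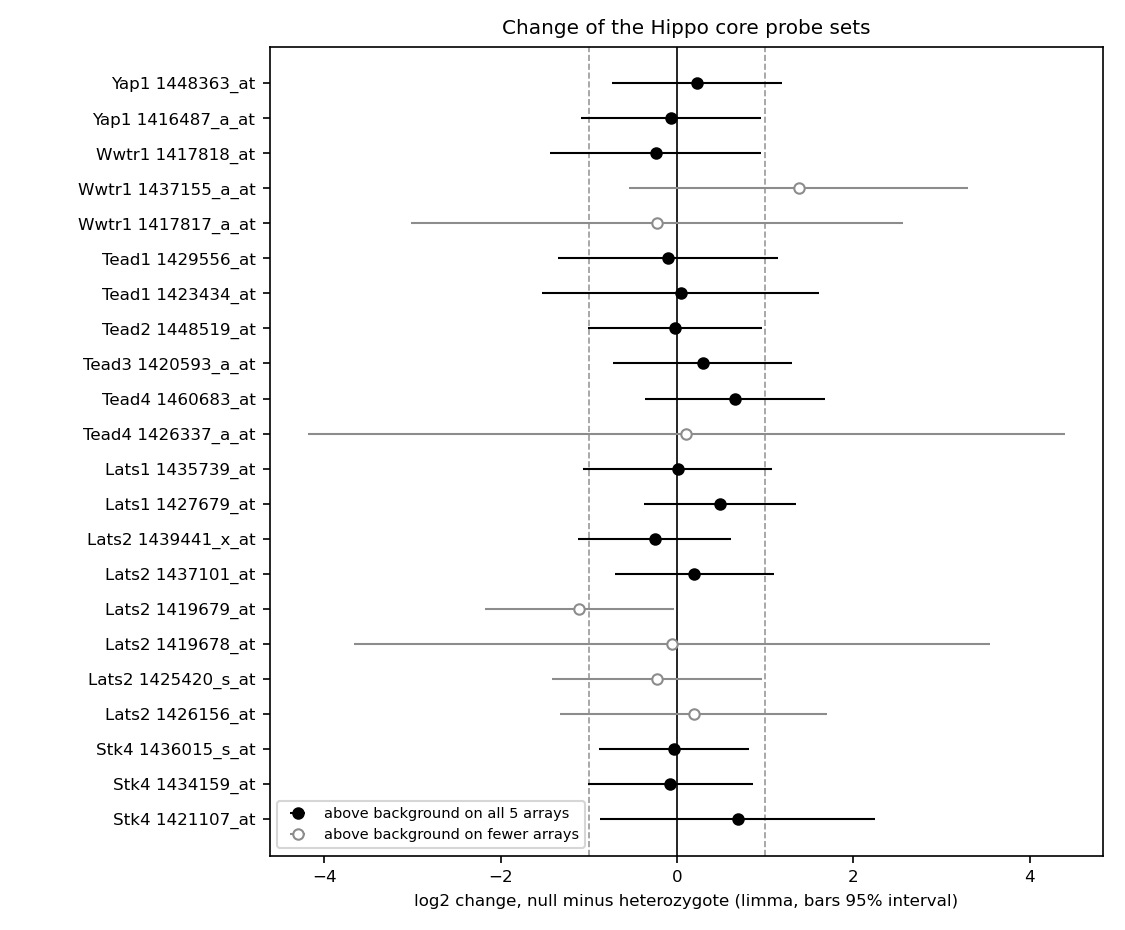
Log2 change in nulls against heterozygotes (x axis) for the 22 Hippo core probe sets (y axis), with 95% intervals from the untrended limma fit and dashed lines at a 2-fold change in each direction. Of the intervals, 21 include 0, and the exception is Lats2 1419679_at, whose upper bound is -0.034.

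Of the coactivators, Yap1 was above background on every array at both of its probe sets. At its brightest probe set, 1448363_at, signals were 9.87 and 9.42 in heterozygotes and 9.64, 9.95 and 10.03 in nulls. Null replicate 1 lay between the heterozygotes and the other nulls just above them. The log2 change was 0.22 (SE 0.37, 95% interval -0.74 to 1.19, limma adjusted p = 0.999). Leaving out heterozygote replicate 1 gave 0.45, and leaving out replicate 2 gave 0.0020. At 1416487_a_at the log2 change was -0.070 (SE 0.39). Wwtr1, the partly redundant partner of Yap1, was measured by 1417818_at, at 6.44 and 6.93 in heterozygotes and 6.00, 6.99 and 6.34 in nulls. The groups overlapped, with a log2 change of -0.24 (95% interval -1.43 to 0.96, adjusted p = 0.999). Both remaining Wwtr1 probe sets were above background on 1 array each. At 1437155_a_at both heterozygotes were below background and null replicate 2 alone was above it, at 3.75, so its log2 change of 1.38 is mostly set by values below background.

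The 4 Tead genes encode DNA-binding proteins of one family, and none of their probe sets passed the test. Tead2, the form known from early embryos, was measured by 1448519_at, at 10.18 and 9.67 in heterozygotes and 9.73, 9.85 and 10.15 in nulls. All nulls fell between the heterozygotes, and the log2 change was -0.018 (95% interval -1.01 to 0.97, adjusted p = 0.999). Tead1 at 1429556_at had 6.81 and 8.01 in heterozygotes and 7.42, 7.33 and 7.19 in nulls. The heterozygotes spread more widely (SD 0.85) than the nulls (SD 0.11) and enclosed them, so the log2 change of -0.098 rests on which heterozygote is used: it was 0.50 without heterozygote replicate 2 and -0.70 without replicate 1. Its dimmer probe set 1423434_at gave 0.041, with null replicate 1 highest at 5.60. Tead3 at 1420593_a_at was at 5.40 and 4.82 in heterozygotes and 5.60, 5.45 and 5.16 in nulls, with overlapping groups and a log2 change of 0.29 (SE 0.39).

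Tead4, best known for its role in the trophectoderm of the blastocyst, was close to background. At 1460683_at it had log2 signals of 3.56 and 3.59 in heterozygotes and 4.12, 3.93 and 4.66 in nulls. Every null array lay above both heterozygotes, but the difference did not pass (log2 change 0.66, SE 0.40, 95% interval -0.37 to 1.68, limma adjusted p = 0.991). With an offset of 16 on the linear signal, which damps dim values, the log2 change was 0.33. The other Tead4 probe set, 1426337_a_at, was above background on 3 arrays and ranged from -0.03 to 4.33, with null replicate 1 lowest. Its log2 change of 0.11 became -1.35 without heterozygote replicate 2 and 1.56 without heterozygote replicate 1.

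Among the kinases, Stk4 (MST1) had the smallest spread of all core probe sets. At 1436015_s_at the log2 signals were 9.07 and 9.13 in heterozygotes and 9.10, 9.07 and 9.02 in nulls. The 5 arrays thus lay within 0.106 of each other, and the log2 change was -0.035 (95% interval -0.89 to 0.82, adjusted p = 0.999), the only interval inside a 2-fold change in both directions. Its probe set 1434159_at had a log2 change of -0.074. At 1421107_at it was 0.69, set by heterozygote replicate 1, which was lowest at 3.46 against 4.69 to 5.16 on the other 4 arrays. Without that array the log2 change at 1421107_at was -0.14.

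The LATS kinases, which phosphorylate YAP and TAZ directly, gave different pictures at different probe sets. Lats1 at its brightest, 1435739_at, had 7.78 and 8.51 in heterozygotes and 8.44, 7.99 and 8.03 in nulls, and a log2 change of 0.0075. Here all nulls lay between the heterozygotes. At 1427679_at Lats1 had 7.32 and 7.19 in heterozygotes and 7.71, 7.81 and 7.71 in nulls. Nulls were above both heterozygotes with a small spread (SD 0.061), and the log2 change was 0.49 (SE 0.33, untrended adjusted p = 0.991, trended adjusted p = 0.976).

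Lats2, which is itself a known YAP target and so part of a feedback loop, had 6 probe sets. At 1419679_at the log2 signals were 4.66 and 4.68 in heterozygotes and 3.90, 3.07 and 3.72 in nulls. All nulls were lower, and null replicate 2 was below background. The log2 change of -1.11 (SE 0.41) had the lowest adjusted p of the core probe sets in the untrended fit, at 0.893. In the trended fit its SE was 0.61 and its adjusted p 0.976, and with an offset of 16 the log2 change was -0.57. The brighter 1439441_x_at also had lower nulls without overlap, at 6.67 and 6.52 against 6.24, 6.38 and 6.42, but by only -0.25. A name ending in _x_at marks a probe set that can match several transcripts. At 1437101_at the groups overlapped and the log2 change was 0.20, so the probe sets of Lats2 that were above background on 4 or 5 arrays did not share a direction. The remaining 3 were above background on 0 to 3 arrays, with log2 changes of -0.22 to 0.19.

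Paralogues were also compared by the difference of their log2 changes at their brightest probe sets. These differences move with quantile normalisation: that of Tead2 and Tead4 was -0.68 with it and -0.89 without, and that of Tead1 and Tead2 turned from -0.080 to 0.019. The SE and interval of a pair came from its ordinary pooled variance over the 5 arrays and not from limma. They are therefore not comparable with those of single genes. An exact two-sided permutation test over the 5 arrays cannot give a p under 0.1, so it could call none of the 8 measurable pairs, and the values are a description. Tead2 relative to Tead4 reached this limit (exact permutation p = 0.1, 0.8 after Benjamini-Hochberg adjustment over the 8 pairs). Its difference was -0.68 (SE 0.26), with the ratio lower on all 3 null arrays than on both heterozygotes. Tead2 itself changed by -0.018 and Tead4, which was close to background, by 0.66. With the offset of 16 the difference was -0.35. Yap1 relative to Wwtr1 differed by 0.46 (95% interval -1.01 to 1.94, exact permutation p = 0.5), and Lats1 relative to Lats2 by 0.26 (95% interval -1.06 to 1.58, exact permutation p = 0.6). These intervals are too wide to say that paralogues moved alike or apart.

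Upstream of the kinases, cell adhesion and polarity proteins set Hippo activity. Of 35 listed upstream regulators 33 were measured, with 18 higher and 15 lower in nulls, a median log2 change of 0.066 and 0 called by the untrended or trended fit. The direct partners of the core kinases also did not pass at their brightest probe sets. Nf2 (merlin) had a log2 change of -0.012, the scaffold Sav1 -0.19, and the LATS coactivators Mob1a and Mob1b -0.12 and 0.21, with limma adjusted p of 0.999 for each. The dim Mob1b 1430564_at exceeded background in both heterozygotes, at 3.53 and 3.78, and in no null.

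The members furthest from 0 above background were the giant protocadherin Fat4 and its ligand Dchs1. Fat4 at 1459749_s_at had log2 signals of 7.11 and 6.49 in heterozygotes and 5.14, 5.03 and 6.06 in nulls. At its other probe set, 1460574_at, it had 6.09 and 6.18 against 4.89, 5.76 and 4.66. Nulls were below both heterozygotes at each, with log2 changes of -1.39 (SE 0.50) and -1.04 (SE 0.47), but neither passed (untrended adjusted p = 0.864 and 0.947, trended 0.953 and 0.976). Dchs1 had 5.52 and 5.95 in heterozygotes and 3.75, 4.83 and 5.59 in nulls. Null replicate 3 overlapped the heterozygotes, and the log2 change was -1.01 (adjusted p = 0.991), or -0.52 without null replicate 1. Fjx1, a Golgi kinase that modifies these protocadherins and stands in the target list, was lower in nulls at its 3 probe sets, which were near background. Fat4, Dchs1 and Fjx1 were set together because their values had been seen to be lower, so a count over them only describes that choice: 6 of 6 probe sets had a negative log2 change and 3 had all nulls below, where 10.1% of all probe sets did. Of the mesenchyme markers, 17 of 20 had a positive log2 change (median 0.55), where 49.1% of all genes did, and their part in these values was not tested. Llgl1, a basolateral polarity protein, had a log2 change of -0.55, and Rassf2 was above background on 1 array.

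Proteins that bind YAP, TAZ or TEAD outside the kinase cascade were balanced as a list. Of 27 listed, 25 were measured, with 12 higher and 13 lower in nulls, a median log2 change of -0.0034 and 0 called by the untrended or trended fit. The angiomotins are junction proteins that bind YAP and hold it outside the nucleus. Amot at 1454890_at had log2 signals of 9.41 and 9.57 in heterozygotes and 10.12, 10.30 and 9.90 in nulls. The groups were apart, with a log2 change of 0.62 (SE 0.35, untrended adjusted p = 0.986, trended adjusted p = 0.953). Amotl1 at 1455247_at had 7.19 and 6.33 in heterozygotes and 7.57, 7.23 and 7.46 in nulls, a log2 change of 0.66 (adjusted p = 0.991), and at 1431121_at the change was 0.90 (adjusted p = 0.942). The groups overlapped at Amot 1425907_s_at (log2 change 0.28, and -0.12 without heterozygote replicate 2) and at Amotl1 1428785_at (0.22, and -0.017 without heterozygote replicate 2).

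For Amotl2, which is also a YAP target, groups overlapped and the log2 change was 0.13. It was -0.30 without heterozygote replicate 1. Over the 3 angiomotin genes 7 of 7 probe sets had a positive log2 change, or 6 of 7 without normalisation, and 4 had all nulls above, where 49.3% and 9.9% of all probe sets did. No probe set of the 7 passed the test, and the genes were grouped after their values had been seen, so the counts only describe them. Vgll4, a TEAD cofactor that competes with YAP, had a log2 change of 0.18 (adjusted p = 0.999). Erbb4 and Vgll1, which the naming rule brought in by their p, were above background on no array.

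**Figure D3:**
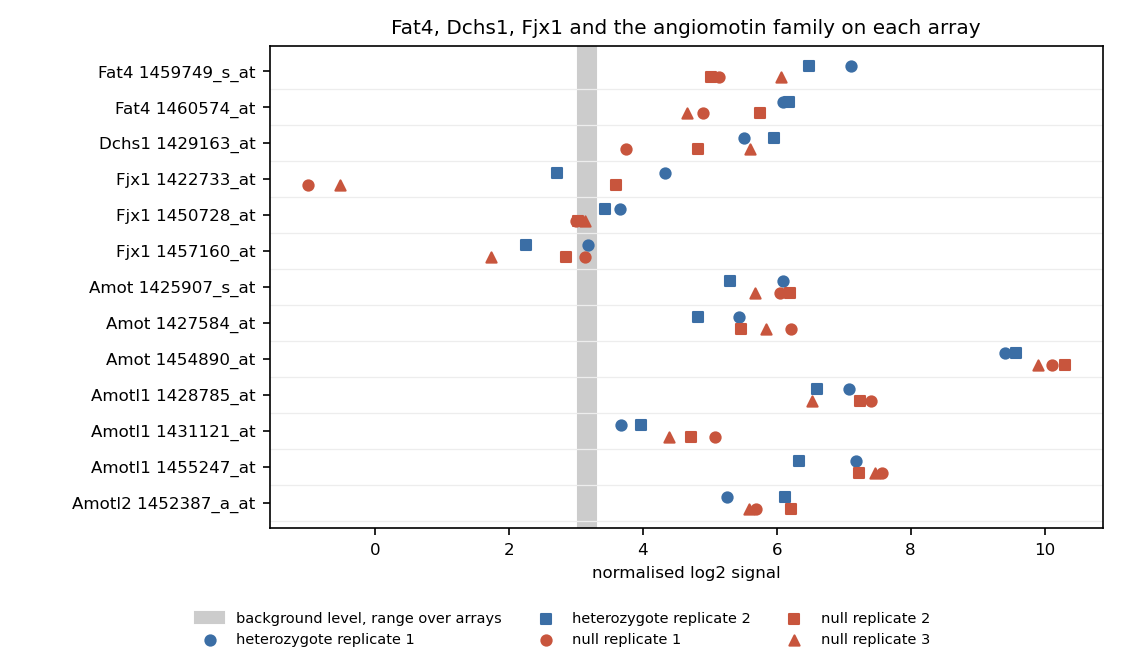
Normalised log2 signal (x axis) of the probe sets of Fat4, Dchs1, Fjx1 and the angiomotin genes Amot, Amotl1 and Amotl2 (y axis) on the 5 arrays, with heterozygotes in blue, nulls in red and the range of the background level in grey. At Fat4 every null point lies left of both heterozygotes, and at Amot 1454890_at every null point lies right of them, although no probe set passed the test.

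Target genes are often used as a readout of YAP and TAZ activity. The list is not separate from the others, since Lats2 and Tead1 are also core genes and Ajuba, Amotl2 and Ptpn14 stand in other lists. Of 28 listed targets 27 were measured, with 11 higher and 16 lower in nulls, a median log2 change of -0.060 and 0 called by the untrended or trended fit. Above background on every array were 17 of them, of which 7 were higher. Ccn2 (CTGF), the most used target, was measured by 1416953_at, at 4.72 and 3.91 in heterozygotes and 4.21, 4.78 and 4.79 in nulls. Its groups overlapped and its log2 change was 0.28 (95% interval -0.88 to 1.43, limma adjusted p = 0.999), but -0.13 without heterozygote replicate 2 and 0.68 without heterozygote replicate 1. Ccn1 (CYR61) at its brightest probe set, 1416039_x_at, had 3.99 and 4.70 in heterozygotes and 4.20, 3.95 and 4.71 in nulls. The log2 change there was -0.060 (adjusted p = 0.999). Dropping a single heterozygote moved it to 0.29 (replicate 2 dropped) or -0.41 (replicate 1 dropped). Ccn1 1438133_a_at, also above background on all 5 arrays, had overlapping groups and the opposite sign, with a log2 change of 0.27 (adjusted p = 0.999). That change stayed positive under every alternative, from 0.11 to 0.39. Its signals of 3.78 to 4.44 were close to background, however, and its 95% interval was -0.69 to 1.23. The dimmer Ccn1 probe sets 1457823_at and 1442340_x_at were above background on 2 arrays and 1 array. Ankrd1 was above background on no array, and Axl at its brightest probe set was above it on 3, so these targets had no measurable comparison or a weak one.

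Of the targets with the lowest p, Birc5 (survivin, an inhibitor of apoptosis that is also a gene of dividing cells) had 7.59 and 7.95 in heterozygotes and 6.97, 7.27 and 7.25 in nulls. Nulls were lower without overlap, but the log2 change of -0.61 did not pass (SE 0.36, adjusted p = 0.991). Igfbp3, a binding protein of insulin-like growth factors, had a log2 change of -0.64 (adjusted p = 0.992), with null replicate 3 at 6.13, above both heterozygotes at 6.02 and 5.89. Nt5e was above background on 1 array at each of its 2 brightest probe sets. At the brightest probe set of each gene, 4 target genes (Fjx1, Arhgef17, Birc5 and the core gene Lats2) had all nulls below both heterozygotes and 0 had all nulls above. Over all genes tested 10.1% were below and 9.82% above.

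**Figure D4:**
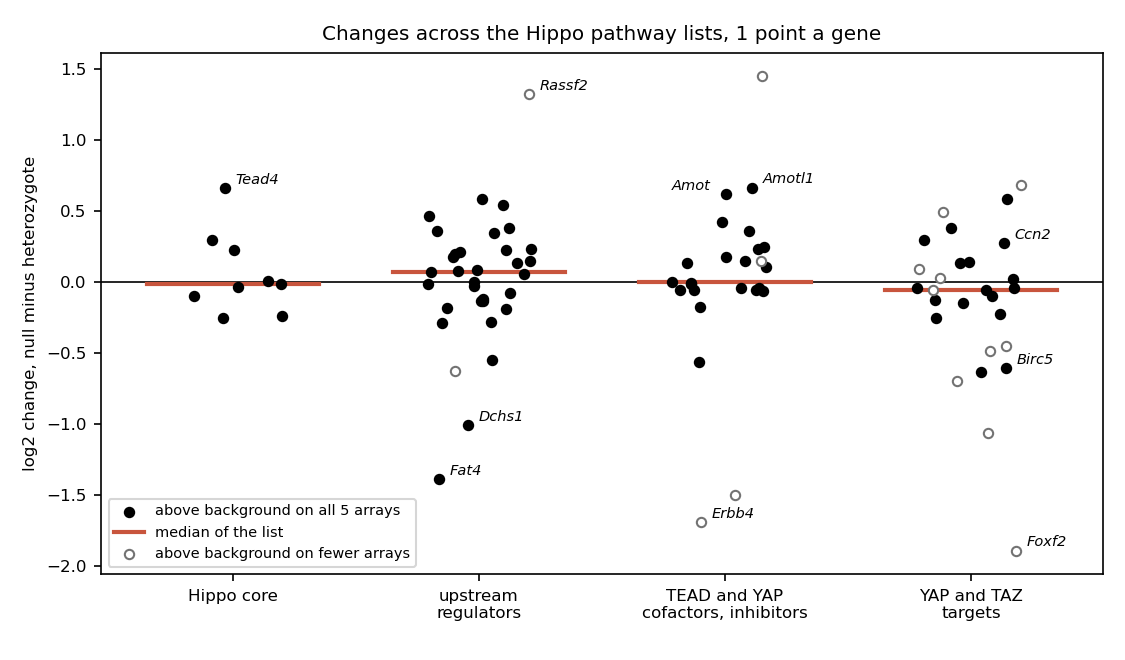
Log2 change in nulls against heterozygotes (y axis) for each measured gene of the 4 Hippo pathway lists (x axis), at its brightest probe set, with red lines at the medians and open circles for genes above background on fewer than 5 arrays. The medians lie between -0.060 and 0.066, and the widest changes among filled points are those of Fat4 and Dchs1.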

How the data were processed

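The table that the authors deposited gives 1 linear intensity for each probe set on each array. The submitters' processing notes list GCOS and RMA without saying how either was used. Intensities were converted to log2 with no offset and quantile normalised over the 5 arrays, and 64 control probe sets were removed before testing. Of the tested probe sets, the platform annotation gives 34945 a single symbol, 932 several and 9160 none. Background was the 95th percentile of 27 Bacillus subtilis controls.

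Genotypes were compared with limma 3.58.1 in R 4.3.3 (lmFit and eBayes, two-sided, Benjamini-Hochberg adjustment over all 45037, threshold 0.05), without a trend as the main fit and with a trended, robust prior as an alternative. The scripts were tested on simulated data. The brightest probe set on average stood for a gene. Named genes were all core probe sets, the 4 genes of lowest p from each other list, and Nf2, Sav1, Mob1a, Mob1b, Vgll4, Amot, Amotl2, Ccn1, Ccn2, Ankrd1 and Axl. Members and lists were chosen with earlier results of these data known, so no list was tested. Alternatives were other normalisations, raising dim values to background, an offset of 16, a filter on dim probe sets, the mean of a gene's probe sets, each array left out and a replicate block.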

Additional observations from a re-analysis of the deposited data

How the results depend on the processing

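No Hippo core probe set was called under any alternative run, and over all probe sets the count was 0 except for 8 with the trended prior. Scaling shifted bright genes together: the median log2 change of genes above background on all arrays was -0.0074 with quantile normalisation, -0.12 with median centring and -0.16 with none. List medians under these last settings were -0.19 and -0.24 (core, with 2 of 9 genes higher without normalisation), -0.046 and -0.091 (upstream), -0.10 and -0.14 (cofactors) and -0.15 and -0.19 (targets). Lats1 was then at -0.12 and -0.16, Yap1 at -0.013 without normalisation, and Tead1 minus Tead2 at 0.019 under both. With the mean of a gene's probe sets, medians were 0.19 (core), -0.021 (upstream) and 0.13 (cofactors), and log2 changes were 0.31 for Wwtr1, 0.19 for Stk4 and -0.23 for Yap1 minus Wwtr1. Leaving out 1 array at a time gave medians of -0.062 to 0.011 (core), -0.018 to 0.16 (upstream), -0.036 to 0.099 (cofactors) and -0.18 to -0.037 (targets). For single genes it gave 0.0020 to 0.45 (Yap1), -0.51 to 0.0061 (Wwtr1), -0.70 to 0.50 (Tead1), -0.28 to 0.24 (Tead2), -0.0017 to 0.58 (Tead3) and -0.35 to 0.37 (Lats1). For pairs it gave -0.0041 to 0.93 (Yap1 minus Wwtr1), -0.18 to 0.70 (Lats1 minus Lats2), -0.94 to 0.78 (Tead1 minus Tead2) and -1.28 to 0.50 (Tead1 minus Tead3). The cause of these shifts was not tested. With a replicate block Tead1 minus Tead2 was 0.10, and no call changed. Arrays of the same replicate number did not deviate together (correlations of -0.017 and 0.0080).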

Other observations

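One further probe set, 1421055_at, is annotated to both Xpo4 and Lats2 and was therefore not a member. Its log2 change was 0.076 (SE 0.62, limma adjusted p = 0.999), with all 5 arrays above background.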
